A study of Homo sapiens with 6 samples.

Results

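Glutathione S-transferases were examined in KYSE70, a line from a human esophageal squamous cell carcinoma (ESCC) that carries a mutant NFE2L2 gene, and in NRF2null-KYSE70, its derivative after disruption of that gene. NFE2L2 encodes the transcription factor NRF2. The derivative was grown from 1 clone after CRISPR-Cas9 cutting in the second exon of NFE2L2, so a difference between the lines was a difference between this clone and its parent. By the study's own account the clone still made some shorter NFE2L2 transcripts and a faint, smaller NRF2 protein band. Both lines were untreated and grown in RPMI1640 medium with serum, and each gave 3 libraries of total RNA. Nothing in the labels says that these came from separate cultures, so the p-values measure the spread between these libraries, which may be technical. The 10 genes were GSTP1, GSTM2, GSTM3, GSTM4, GSTA4, GSTO1, GSTK1, MGST1, MGST2 and MGST3, taken by symbol from the 58884 genes of the table. Each symbol was found once.

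Glutathione S-transferases join the tripeptide glutathione to electrophiles such as lipid peroxidation products, carcinogens and several anticancer drugs. The soluble enzymes are named by class, with pi (GSTP1), mu (GSTM2, GSTM3, GSTM4), alpha (GSTA4) and omega (GSTO1) in the cytosol and kappa (GSTK1) in mitochondria and peroxisomes. The microsomal enzymes MGST1, MGST2 and MGST3 sit in membranes and belong to another protein family, MAPEG, which also holds enzymes of leukotriene and prostaglandin synthesis. NRF2 is known to drive many genes of glutathione synthesis and conjugation through antioxidant response elements, and KEAP1 holds it in check.

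Reads assigned to genes numbered 52072801 to 63975313 per library. The targeted gene NFE2L2 was lower in NRF2null-KYSE70 than in KYSE70, by -0.71 ± 0.049 (SE) in log2 fold change (limma adjusted p = 9.37e-08), and 5636 to 6161 reads per library remained. KEAP1, the adaptor that targets NRF2 for degradation, was also lower (log2 fold change -0.78). All 10 squamous epithelial markers checked were detected, with a summed normalized count of 356056 to 368082 in KYSE70 and 287885 to 306687 in NRF2null-KYSE70. The keratin gene KRT5 was the largest part of this sum in both lines (log2 fold change -0.75). Its mean was 209917 in KYSE70 and 124640 in NRF2null-KYSE70. By contrast, 7 of the 10 markers passed the limma test as higher and 3 as lower in NRF2null-KYSE70, with a median log2 fold change of 0.28. Of 11 markers of blood, vessel and stromal cells, 2 (PTPRC and VWF) had a mean of at least 10 and were tested, and both were higher in NRF2null-KYSE70. PTPRC, a surface phosphatase of leukocytes, gave 0, 0 and 1.05 in KYSE70 and 42.6, 40.2 and 47.9 in NRF2null-KYSE70 (log2 fold change 5.13), and the endothelial gene VWF had a log2 fold change of 1.28. PTPRC reached a mean of 10 only through NRF2null-KYSE70, so its direction was set on entry to the test. PDGFRB, a receptor of pericytes and fibroblasts, held 0 reads in each KYSE70 library and 12, 15 and 14 in NRF2null-KYSE70, whereas the fibroblast marker DCN was 0 in every library. The summed normalized count of the 11 markers was 149 to 160 in KYSE70 and 337 to 509 in NRF2null-KYSE70, and its part in the results below was not tested.

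The stretches upstream of the 3 transferases that fell most, GSTA4, GSTM2 and GSTM3, are printed first because the results turn on these genes. Each runs from 250 to 51 bases before the RefSeq start (GRCh38.p14) on the strand of the gene and overlaps no annotated exon. They lay at chr6:52995335-52995534 (minus strand), chr1:109667807-109668006 (plus strand) and chr1:109741089-109741288 (minus strand), respectively.
GSTA4: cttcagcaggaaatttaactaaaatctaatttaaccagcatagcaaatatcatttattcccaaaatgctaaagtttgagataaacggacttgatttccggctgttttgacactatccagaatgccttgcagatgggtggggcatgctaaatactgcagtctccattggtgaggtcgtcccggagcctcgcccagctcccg
GSTM2: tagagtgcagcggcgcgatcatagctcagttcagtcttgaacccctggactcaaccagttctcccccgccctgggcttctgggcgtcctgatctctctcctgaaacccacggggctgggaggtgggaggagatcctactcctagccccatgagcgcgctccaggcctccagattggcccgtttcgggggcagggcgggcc
GSTM3: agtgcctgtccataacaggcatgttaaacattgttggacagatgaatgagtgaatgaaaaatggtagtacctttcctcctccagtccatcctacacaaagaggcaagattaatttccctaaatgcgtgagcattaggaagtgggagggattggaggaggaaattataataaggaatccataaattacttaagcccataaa
The 3 stretches differed in composition. G and C made up 44.5% of the GSTA4 stretch, 64.5% of the GSTM2 stretch and 39.5% of the GSTM3 stretch, against a median of 57.5% over all promoters, and the GSTM3 stretch held 1 CpG against 11 in GSTM2.

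The core of the antioxidant response element, TGACNNNGC on either strand, was searched in the promoters of 9 transferases. The window ran from 250 bases before to 50 bases after the RefSeq start of each entry. No promoter entry was found for MGST2. A match was present in 4 of their 11 promoter entries (1 each for GSTP1, GSTO1 and GSTA4, and 1 of the MGST1 entries) and in 13.3% of all 35116 promoters. The GSTM2 and GSTM3 windows held no match. The matches upstream of the RefSeq start are printed with up to 10 bases on each side, with the core in capitals. They lay at chr11:67583736-67583764 for GSTP1, chr10:104254656-104254684 and chr10:104254721-104254749 for GSTO1, and chr6:52995285-52995303 for GSTA4. Each printed core lay inside the span of its gene in GENCODE v44, which places the gene's start elsewhere.
GSTP1: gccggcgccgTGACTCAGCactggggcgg
GSTO1, distal: ggcggagggaTGACTGAGCatttataact
GSTO1, proximal: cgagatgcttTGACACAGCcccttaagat
GSTA4: ccgggaccgcTGACCTGGC
With an A required after the core (found in 3.18% of promoters), GSTP1, GSTO1 and MGST1 kept a match and GSTA4 did not. A match is a run of letters and not a measured binding site.

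Across the family, 5 of the 9 tested transferases were lower in NRF2null-KYSE70 at an adjusted p under 0.05 (GSTP1, GSTM2, GSTM3, GSTA4 and MGST1), in a comparison where 28.3% of all 15994 tested genes were lower by this rule. GSTK1 alone was higher, where 29.3% of tested genes were. The falls of GSTM2, GSTM3 and GSTA4 also exceeded a log2 fold change of 1, which 7.43% of tested genes did in this direction. GSTO1, MGST2 and MGST3 did not pass the test, and GSTM4 was too low to be tested. None rose past both thresholds with limma, edgeR or DESeq2 (7.23% of tested genes did with limma), and 1, GSTK1, was higher at an unadjusted p under 0.05. The median log2 fold change of the 9 genes was -0.48, against -0.01 over all tested genes. For 6 of the 9, no library of one line fell within the range of the other, a pattern found in 63.4% of all tested genes. Values are normalized counts, reads scaled by the authors with a constant factor for each library. Fold changes compare NRF2null-KYSE70 with KYSE70 after log2(normalized count + 1), so a negative value means less RNA in NRF2null-KYSE70.

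**Figure D1:**
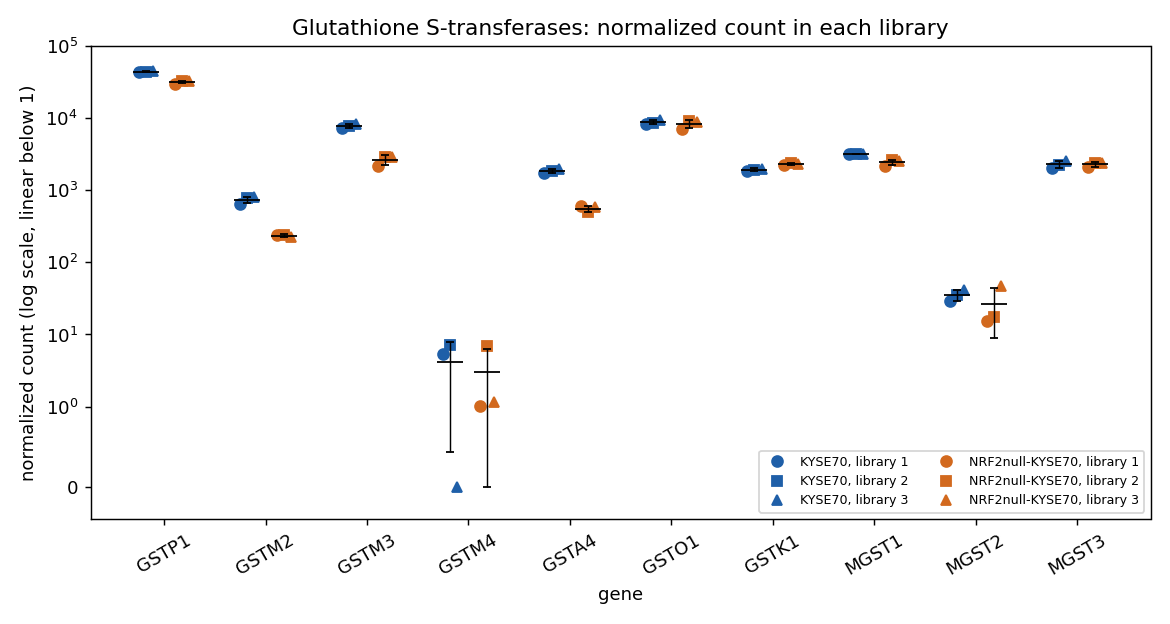
Normalized count (vertical axis, log scale, linear below 1) of the 10 transferases in each of 3 KYSE70 (blue) and 3 NRF2null-KYSE70 (orange) libraries, with bars at the mean ± SD. GSTM2, GSTM3 and GSTA4 show the widest gaps between the lines, GSTO1 and MGST3 overlap, and GSTM4 stays below 10 in every library.

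GSTA4, an alpha-class enzyme that conjugates 4-hydroxynonenal, a product of lipid peroxidation, fell most. It lies on chromosome 6 from 52977948 to 52995304 (minus strand, GENCODE v44, hg38), and its normalized count was 1710, 1838 and 1995 in KYSE70 and 597, 491 and 580 in NRF2null-KYSE70. Every NRF2null-KYSE70 library lay below every KYSE70 library. The mean fell from 1848 ± 143 to 556 ± 56.9 (SD, n = 3), and its log2 fold change was -1.73, with an SE of 0.092 (limma adjusted p = 7.83e-09). On the fitted scale, NRF2null-KYSE70 held between 26.2% and 34.6% of the KYSE70 level (95% confidence interval).

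The mu-class genes form a cluster on chromosome 1, where GSTM4, GSTM2 and GSTM3 lie within 109656099 to 109741038. GSTM3, a mu enzyme abundant in brain and testis, gave normalized counts of 7338, 7702 and 8352 in KYSE70 and 2181, 2844 and 2925 in NRF2null-KYSE70. Its mean fell from 7797 ± 514 to 2650 ± 408 (SD, n = 3), or by -1.57 on the log2 scale with an SE of 0.095 (limma adjusted p = 2.43e-08). The groups did not overlap, and the first NRF2null-KYSE70 library was the lowest. An unnamed noncoding gene overlapped 4.90% of the GSTM3 transcript, and since no use of strand is stated, reads there cannot be assigned to either gene with certainty.

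GSTM2, the other mu enzyme that fell, gave normalized counts of 645, 769 and 793 in KYSE70 and 241, 238 and 225 in NRF2null-KYSE70. All 3 NRF2null-KYSE70 libraries lay far below those of KYSE70, at a log2 fold change of -1.64 with an SE of 0.113 (limma adjusted p = 7.89e-08). Of all stretches of 150 bases in the GSTM2 transcript, 32.4% also occurred in a GSTM1 transcript, so part of its reads could belong to GSTM1. GSTM1 itself held 0 to 7 reads per library. None of the other 9 genes in the set of 10 shared a stretch of 150 bases with another gene.

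GSTM1 was not among the transferases whose coding sequences were aligned. Among those that were, GSTM4 was the closest to GSTM2, with 89.1% identity over the aligned coding sequence, but was nearly silent. Its normalized count was 5.34, 7.26 and 0 in KYSE70 and 1.01, 6.86 and 1.14 in NRF2null-KYSE70. The lines overlapped, 14 and 9 reads stood behind these values in all, and no difference was detectable at this depth. The ratio of GSTM3 to GSTM2 reads, which no scaling of libraries can alter, was 10.6 ± 0.690 in KYSE70 (SD, n = 3) and 11.3 ± 2.05 in NRF2null-KYSE70. The ratio of GSTA4 to GSTM2 reads was 2.52 ± 0.132 and 2.37 ± 0.273. Both ratios overlapped between the lines, so the 3 genes fell by amounts that these libraries did not separate.

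GSTP1, the pi-class enzyme and the main soluble transferase of many carcinomas, fell less but from a far higher level. It lies on chromosome 11 from 67583742 to 67586656 (plus strand). The normalized count was 43387, 43480 and 45114 in KYSE70 and 30072, 32415 and 32397 in NRF2null-KYSE70. The spread within each line was small beside the gap between them. The mean fell from 43994 ± 972 to 31628 ± 1348 (SD, n = 3), or by -0.48 on the log2 scale with an SE of 0.047 (limma adjusted p = 2.42e-06), which left 66.9% to 77.2% of the KYSE70 level.

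GSTO1, the omega-class enzyme that reduces dehydroascorbate and acts as a thioltransferase, did not pass the test. Normalized counts were 8291, 8550 and 9366 in KYSE70 and 7140, 9067 and 8846 in NRF2null-KYSE70. The lines overlapped, and the log2 fold change was -0.07 with a 95% confidence interval of -0.25 to 0.11 (limma adjusted p = 0.476). The interval does not contain a fall as large as that of GSTP1. Without the first NRF2null-KYSE70 library the value turned to 0.04.

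GSTK1, the kappa-class enzyme, was the one member that rose. Its normalized count was 1821, 1925 and 1997 in KYSE70 and 2266, 2390 and 2338 in NRF2null-KYSE70. The groups did not overlap, and the log2 fold change was 0.28, with an SE of 0.060 (limma adjusted p = 0.00124). Genes of its chromosome arm, 7q, had a median log2 fold change of 0.17. After subtraction of each arm's median (arm-centring) the GSTK1 value was 0.12 and no longer passed (limma adjusted p = 0.117).

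Among the membrane enzymes, MGST1, which protects the endoplasmic reticulum and outer mitochondrial membrane from lipid peroxidation, was lower. Its normalized count was 3159, 3150 and 3215 in KYSE70 and 2180, 2590 and 2532 in NRF2null-KYSE70. The KYSE70 libraries were nearly equal, and all 3 NRF2null-KYSE70 libraries lay below them. The log2 fold change was -0.39, with an SE of 0.067 (limma adjusted p = 0.000302), or 69.1% to 84.6% of the KYSE70 level. 

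MGST3, which conjugates leukotriene A4 and reduces lipid hydroperoxides, showed almost no shift in mean. The libraries gave 2064, 2236 and 2540 in KYSE70 and 2075, 2372 and 2411 in NRF2null-KYSE70. The lines overlapped, with a log2 fold change of 0.01 and a 95% confidence interval of -0.17 to 0.19 (limma adjusted p = 0.958).

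MGST2, which can also make leukotriene C4, was scarce and variable, with a normalized count of 29.3, 35.4 and 41.1 in KYSE70 and 15.2, 17.7 and 46.8 in NRF2null-KYSE70. The third NRF2null-KYSE70 library was the highest of all 6 and the other two were the lowest. The log2 fold change was -0.56 with a 95% confidence interval of -1.50 to 0.38 (limma adjusted p = 0.287). Without that library it was -1.05 (limma adjusted p = 0.0436), and over all alternatives the adjusted p ran from 0.0436 to 0.631.

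**Figure D2:**
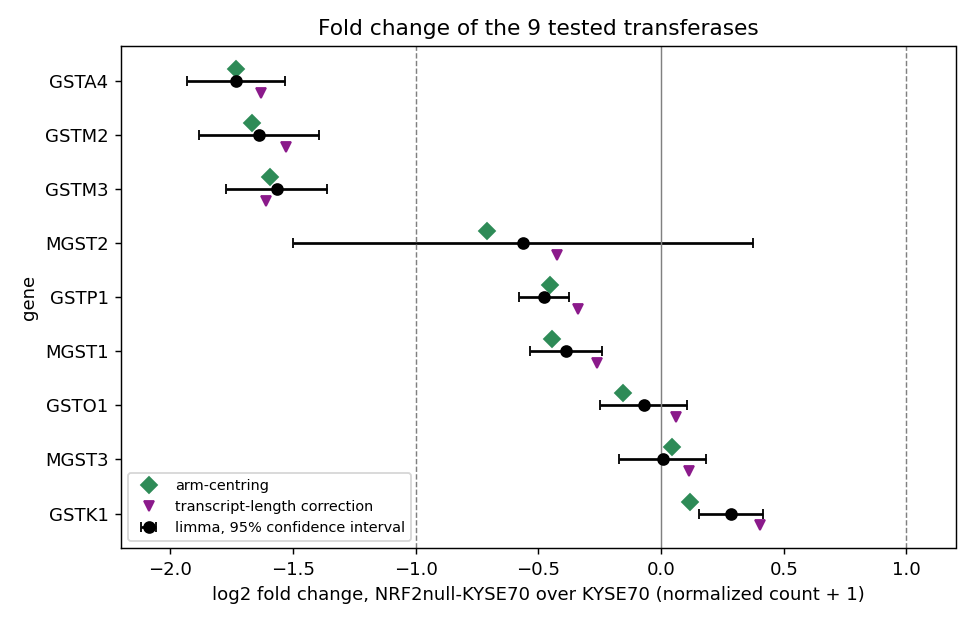
Log2 fold change of the 9 tested transferases (horizontal axis, NRF2null-KYSE70 over KYSE70) with its 95% confidence interval from limma, and the value after arm-centring (green) and after transcript-length correction (purple). Dashed lines mark a log2 fold change of 1 in either direction, which GSTA4, GSTM2 and GSTM3 pass under all 3 fits, and only GSTK1 has its whole interval above 0.

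Levels were compared between genes as normalized counts per kilobase of the canonical transcript. GSTP1 was the leading transferase in both lines, with 59371 ± 1311 per kilobase in KYSE70 (SD, n = 3) against 42683 ± 1819 in NRF2null-KYSE70, and supplied 72.9% and 69.8% of the summed level. GSTO1 came second with 10745 and 10272, followed by MGST1 with 3432 and 2631. The next places changed. In KYSE70, MGST3 (1969), GSTM3 (1892) and GSTK1 (1855) followed, and neighbours in this order overlapped. In NRF2null-KYSE70 the order was GSTK1 (2259), MGST3 (1974) and GSTM3 (643), without overlap. GSTA4 (1490 and 449), GSTM2 (631 and 201), MGST2 (47.7 and 35.9) and GSTM4 (3.01 and 2.16) came last in both lines. These places depend on the length used, and with the length of the union of all annotated exons GSTM3 ranked directly after GSTO1 in both lines.

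The summed level of the 10 genes was 81435 ± 2597 per kilobase in KYSE70 (SD, n = 3) and 61149 ± 3641 in NRF2null-KYSE70, or 75.1% of the KYSE70 level. The single libraries gave 79468, 80459 and 84379 in KYSE70 and 56948, 63379 and 63121 in NRF2null-KYSE70, which did not overlap. Without GSTP1 the sum was 22065 ± 1313 and 18467 ± 1824, or 83.7%. The share of GSTM3 in the summed level went from 2.32% to 1.05% and that of GSTA4 from 1.83% to 0.737%, whereas GSTO1 went from 13.2% to 16.8% and GSTK1 from 2.28% to 3.70%.

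Ratios to GSTP1 within a library, which no scaling between libraries can alter, showed 3 patterns. GSTA4, GSTM2 and GSTM3 fell relative to GSTP1, to 42.0%, 44.5% and 47.1% of their ratio in KYSE70, without overlap between the lines. For GSTM3 the ratio was 169, 177 and 185 reads per 1000 GSTP1 reads in KYSE70 and 72.5, 87.7 and 90.3 in NRF2null-KYSE70. GSTO1, MGST3 and GSTK1 gained on GSTP1, to 133%, 139% and 170%, again without overlap. The share of all tested genes without overlap in this ratio was not computed. GSTP1 itself stood at 71.9% of its KYSE70 level, so any gene without a change gains on it. In normalized count GSTO1, MGST3 and GSTK1 stood at 95.6%, 100% and 122% of KYSE70. MGST1 kept pace with GSTP1, with 72.8, 72.5 and 71.3 reads per 1000 GSTP1 reads in KYSE70 and 72.5, 79.9 and 78.2 in NRF2null-KYSE70, which overlapped.

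**Figure D3:**
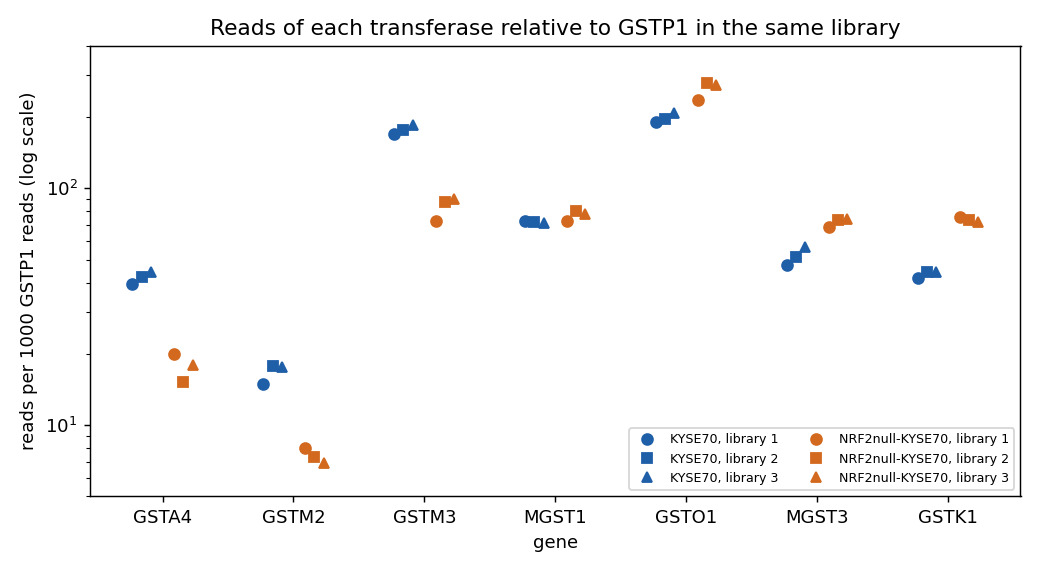
Reads of 7 transferases per 1000 GSTP1 reads of the same library (vertical axis, log scale) in 3 KYSE70 (blue) and 3 NRF2null-KYSE70 (orange) libraries. GSTA4, GSTM2 and GSTM3 drop, MGST1 overlaps between the lines, and GSTO1, MGST3 and GSTK1 are higher in every NRF2null-KYSE70 library.

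Among libraries of the same line, the transferases varied together in KYSE70 and for the most part in NRF2null-KYSE70. In KYSE70, the third library was the highest for 9 of 9 tested members, against 33.1% of all tested genes, and the first was the lowest for 8 of 9, against 34.8%. In NRF2null-KYSE70, the first library was the lowest for 7 of 9, against 36.2%. The other 2, GSTM2 and GSTA4, were highest in that library, with canonical transcripts of 1166 and 1240 bases. GSTM3, with 4122 bases, was among the 7. All tested members except GSTM3 had a canonical transcript of at most 1240 bases. Of the 1099 tested protein-coding genes with transcripts this short, 68.2% were highest in the third KYSE70 library and 71.5% were lowest in the first NRF2null-KYSE70 library. Short transcripts were also lower in NRF2null-KYSE70 as a class, with a median log2 fold change of -0.16 against 0.01 over all tested protein-coding genes.

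After removal of the trend with transcript length in each library, the same genes passed the test in the same direction. The log2 fold changes became -1.63 for GSTA4, -1.53 for GSTM2 and -1.61 for GSTM3, so these moved little. GSTP1 became -0.34 and MGST1 -0.26, smaller falls than before, and GSTK1 became 0.40. GSTO1 turned to 0.06 (limma adjusted p = 0.327), and MGST3 became 0.11 (limma adjusted p = 0.126). This correction was chosen after the values had been seen.

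Because NRF2null-KYSE70 was 1 clone, each transferase was set beside the 20 nearest tested protein-coding genes, 10 on each side. Around the mu cluster the median log2 fold change was 0.06, with a range of -0.47 to 0.90, and GSTM2 and GSTM3 were lower than all 20. GSTP1 was lower than 19 of its 20 neighbours, whose median was -0.03. GSTA4 was lower than 18 of 20, with a median of -0.19, and the lowest of these neighbours was another transferase, GSTA2. MGST1 was lower than 17 of 20. GSTO1 had neighbours with a median of 0.21, of which its sister gene GSTO2 was the lowest. GSTK1, which rose, was lower than 9 of its 20 neighbours, whose median was 0.15.

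**Figure D4:**
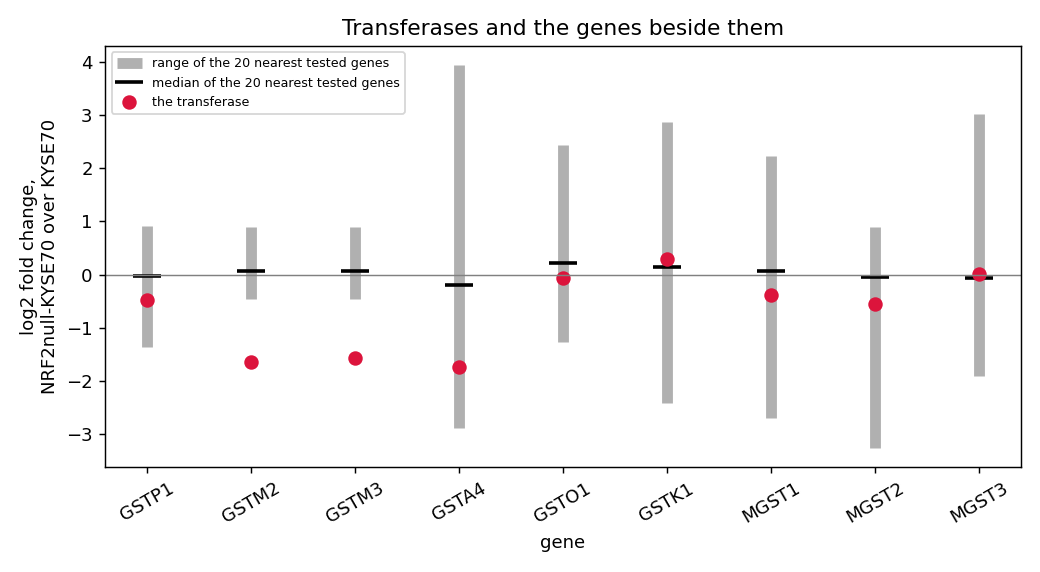
Log2 fold change (vertical axis, NRF2null-KYSE70 over KYSE70) of 9 transferases (red) beside the median (black bar) and range (grey) of the 20 nearest tested protein-coding genes. GSTM2 and GSTM3 lie below the whole range of their neighbours, and GSTK1 lies close to the median of its own.

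Other transferases were mostly silent or low, with GSTZ1 as the exception. Its mean was 1851 in KYSE70 and 1986 in NRF2null-KYSE70, at a log2 fold change of 0.10 (limma adjusted p = 0.203). Of 12 other cytosolic transferases in the table, 6 were tested. Of these, 3 were lower with a log2 fold change beyond 1, and GSTZ1, GSTT2B and GSTT2 did not pass. Of all tested genes, 7.43% were lower past both thresholds. GSTA1, an alpha-class enzyme of liver and intestine, gave normalized counts of 49.8, 42.6 and 65.4 in KYSE70 and 8.11, 10.8 and 5.71 in NRF2null-KYSE70, a log2 fold change of -2.56 (limma adjusted p = 0.00014). Its near-identical neighbour GSTA2 gave 20.5, 23.6 and 41.1 against 8.11, 4.90 and 0, a log2 fold change of -2.90 (limma adjusted p = 0.00656), and -1.94 without the third NRF2null-KYSE70 library. Reads may be divided between GSTA1 and GSTA2, so each value alone is uncertain. GSTO2, the second omega enzyme, had a log2 fold change of -1.27 (limma adjusted p = 0.00749). GSTA1 and GSTA2 reached the mean of 10 needed for the test only through KYSE70, so the filter favoured a fall. Their means were 52.6 and 28.4 in KYSE70 and 8.20 and 4.34 in NRF2null-KYSE70. With the filter at a mean of 50, GSTA1, GSTA2 and GSTO2 were not tested.

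Both tested members of the other MAPEG proteins were lower, where 28.3% of all tested genes were. PTGES, the inducible prostaglandin E synthase, gave 283, 249 and 256 in KYSE70 and 34.5, 40.2 and 58.2 in NRF2null-KYSE70, without overlap and with a log2 fold change of -2.57 (limma adjusted p = 5.95e-07). LTC4S, which makes leukotriene C4, had a log2 fold change of -0.90 (limma adjusted p = 0.00196). Among 6 tested proteins with a transferase fold, 5 were lower and 1 was higher, against 28.3% and 29.3% of all tested genes. The higher one was CLIC4, an intracellular chloride channel protein, at 1.44 (limma adjusted p = 4.14e-11). CLIC2, of the same family, was at -1.14 (limma adjusted p = 0.00079), and at -0.89 without the third NRF2null-KYSE70 library, under the fold change threshold.

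Of the 10 genes of glutathione supply, 6 were lower and 3 higher, with a median log2 fold change of -0.33. Of all tested genes, 28.3% were lower and 29.3% higher, which is the background for each list in this paragraph. GCLC, which catalyzes the limiting step of glutathione synthesis, gave 39538, 38975 and 37552 in KYSE70 and 13907, 12286 and 12694 in NRF2null-KYSE70, a log2 fold change of -1.58 (limma adjusted p = 1.03e-10). CHAC1, which degrades glutathione, gave 1012, 992 and 1114 against 3227, 3137 and 3255, a log2 fold change of 1.63 (limma adjusted p = 5.13e-10). Neither overlapped between the lines. Of 7 conjugate exporters, 3 were lower and 2 higher, and ABCC2, a transporter of glutathione conjugates, was at 1.09 (limma adjusted p = 7.8e-07). The mean of ABCC2 was 424 in KYSE70 and 903 in NRF2null-KYSE70. ABCC1, the exporter with the highest mean in both lines, went from 15295 to 9530, at -0.69 (limma adjusted p = 1.63e-05). Of 5 tested genes of mercapturate formation, which trims the conjugates for excretion, 1 was higher (LAP3, log2 fold change 0.25) and the other 4 did not pass. GSTT1 was not analysed here.

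**Figure D5:**
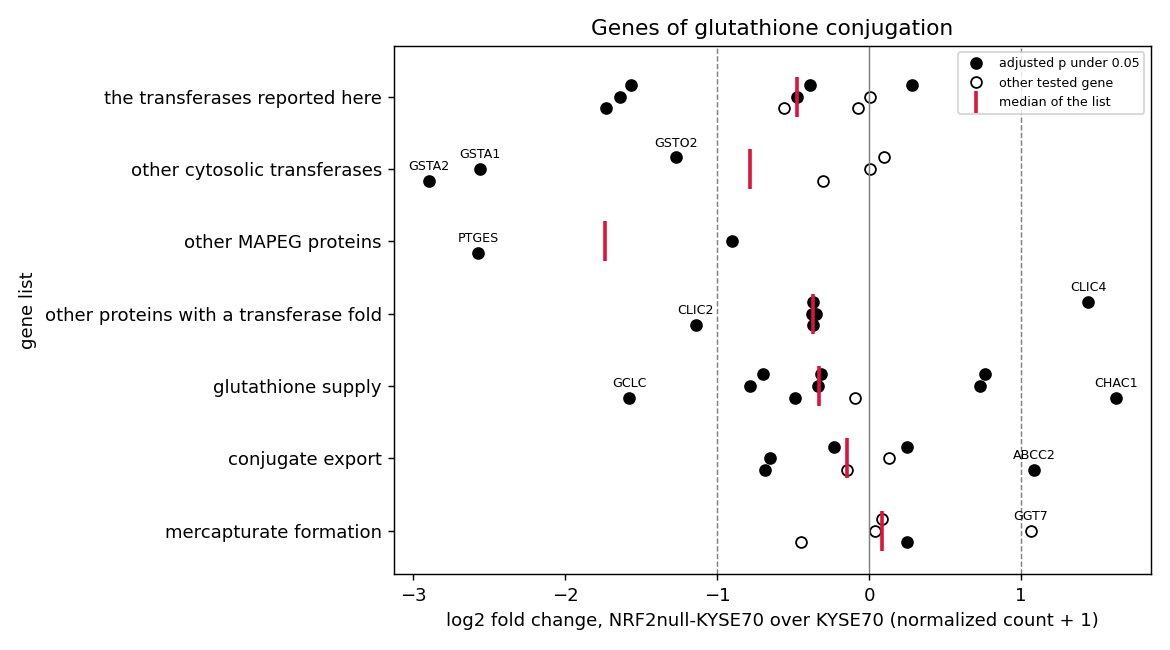
Log2 fold change (horizontal axis, NRF2null-KYSE70 over KYSE70) of each tested gene, by gene list, with filled points for an adjusted p under 0.05 and red bars at list medians. Genes beyond a log2 fold change of 1 are named outside the top row. The medians of the transferase lists, of glutathione supply and of conjugate export lie below 0, while that of mercapturate formation is 0.08.

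The genes whose log2 values followed GSTA4 most closely over the 6 libraries were PFKM (Pearson r = 0.9997), SNN (0.9991) and SMAP2 (0.9989), of 11996 genes compared. With 2 lines of 3 libraries such coefficients are dominated by the gap between the lines, and 287 genes had an r above 0.99. The log2 fold changes of the 3 genes were smaller than that of GSTA4, at -0.42 for PFKM, -0.73 for SNN and -0.72 for SMAP2.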

How the data were processed

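RNA from KYSE70 and NRF2null-KYSE70 cells (n = 3 libraries per line) was sequenced as 150-base reads. Per the labels, the authors used FastQC 0.11.5, cutadapt 1.12, STAR 2.6.90c and featureCounts 1.5.1, with hg38 and mm10 among the builds named. The deposited values are a signal in normalized counts, and within each library they were whole reads times a constant. The paper names DESeq2 for its test of the genes but does not say how this constant was set. Whole reads were recovered (100% of values within 0.01 read; 1 read was worth 0.889 to 1.14). Use of strand and of multiply aligned reads is not given in the sources used here. Column names carried no replicate number, so libraries are numbered by their order within a line.

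limma 3.58.1 (R 4.3.3; lmFit, eBayes with a trend) was fitted on log2(normalized count + 1) for 15994 genes with a mean of at least 10, with two-sided p-values adjusted by Benjamini-Hochberg over all of them. A gene was called at an adjusted p under 0.05, and past both thresholds where its log2 fold change was also at least 1 in size. edgeR 4.0.16 and DESeq2 1.42.0 on recovered reads were alternatives, beside other pseudocounts (0.1, 5), filters, scalings, arm-centring, libraries left out in turn and, chosen after seeing the data, union exon length and a transcript-length correction (lowess, span 0.3). The fits were tested on simulated data. Intervals are at 95%. Depth sets the precision of scarce genes, and read counts cover counting error only.

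The text names all 10 transferases, NFE2L2, KEAP1, up to 4 genes past both thresholds per related list, and the 3 genes (mean of at least 100) most correlated with the transferase that changed most. LTC4S, LAP3, GSTM1, GSTZ1, GSTT2, GSTT2B, ABCC1, marker genes and neighbouring genes were named after their values were seen. Members and lists were chosen with earlier results of these data known. Positions and transcripts came from GENCODE v44 and promoters from RefSeq (GRCh38.p14; 9 of 10 members matched). Protein sequences were not used here, and most of the markers checked are not reported by name.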

Additional observations from a re-analysis of the deposited data

How the results depend on the processing

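GSTP1, GSTM2, GSTM3, GSTA4, MGST1 and NFE2L2 kept their direction and their side of the adjusted p threshold in all 19 alternatives, with log2 fold changes from -0.55 to -0.34 for GSTP1, -1.73 to -1.53 for GSTM2, -1.64 to -1.43 for GSTM3 and -1.81 to -1.63 for GSTA4. With arm-centring, 0 members were higher at an adjusted p under 0.05, since GSTK1 no longer passed (1.24e-03 before and 0.117 after). GSTO1 turned to 0.063 with the transcript-length correction and ran from -0.135 to 0.038 with 1 library left out. MGST3 turned to -0.070 with total scaling and -0.019 with quantile normalization, and ran from -0.063 to 0.086 with 1 library left out. None of these GSTO1 and MGST3 values passed the test, and the cause of these turns was not tested. Total scaling moved the median of all genes by -0.08. The summed level stayed between 71.3% and 77.7% of KYSE70. Of all genes, 2344 passed both thresholds, 1511 with a filter at a mean of 50, which tests fewer genes, and 970 with the treat test, which tests against the fold change threshold itself and still called 3 members. With the longer form of the motif, 3 members had a match. No paired analysis was possible because no replicate number stands in the column names. Depth limits GSTM4 and MGST2, and 1 clone cannot separate the loss of NRF2 from other differences of that clone.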
